A study of Homo sapiens with 10 samples.

Results

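The NRF2 antioxidant genes followed here are NFE2L2, the gene of the transcription factor NRF2, and 8 of its textbook targets, namely HMOX1, SLC7A11, GCLC, GCLM, TXNRD1, SRXN1, NQO1 and AKR1C1. They are a list of names among the 18144 genes of the expression table, with no threshold on a value, although earlier results of these data were known when the list was made. PC-3 is a human prostate cancer line from a bone metastasis that has lost androgen dependence, and it was grown here as 3D spheroids, with 1 spheroid per well, and sequenced as bulk RNA. The spheroids were given no drug, a conventional bolus of topotecan at the start (CONV-TOPO), or the same weekly amount in daily fractions (extended exposure, EE-TOPO, a metronomic-like schedule). Topotecan traps topoisomerase I on DNA. All groups were the same line, labelled wild type, so none differs by genotype. Of the 10 samples, 7 libraries were analysed. Untreated spheroids were read out on days 0, 3 and 7, and those of CONV-TOPO and of EE-TOPO on days 3 and 7. The 3 libraries of day 1 were not used here. There was 1 library for each treatment and day, so no value below has a replicate, and both regimens were compared with the same untreated libraries.

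NRF2 is made and destroyed continuously in unstressed cells, because KEAP1 holds it for ubiquitination by the CUL3 ligase. Electrophiles and oxidants modify KEAP1, NRF2 then accumulates, and with a small MAF protein it binds antioxidant response elements near genes of glutathione synthesis, the thioredoxin system, quinone and carbonyl detoxification, NADPH supply and iron storage. BACH1 occupies many of the same elements as a repressor and leaves them when it binds heme, and HMOX1 is known as the target most tightly held by BACH1. Because NRF2 is controlled mainly as a protein, the transcript of NFE2L2 is not a measure of its activity.

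The libraries held 15.0 M to 22.4 M estimated reads (M, 1000000). Levels are given as scaled CPM, the deposited counts per 1000000 reads divided by a TMM factor, which sets the bulk of genes equal between libraries. On day 7 this scaling placed treated libraries 1.19-fold (CONV-TOPO) and 1.17-fold (EE-TOPO) higher against untreated than library totals would. All 9 genes passed the filter on low values, as did 14731 genes in all. The epithelial and PC-3 markers KRT8, KRT18, VIM and CD44 were all above 252 CPM in every library. Leukocyte markers summed to at most 1.20 CPM, and VWF and DCN, defining markers of endothelium and of fibroblasts, were at or under 0.264 CPM, although PECAM1 and COL1A1 were at 16.8 to 32.7 and 46.6 to 83.0 CPM. In bulk RNA, fewer cells of a type and less RNA per cell cannot be told apart.

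The RefSeq table of promoters (GRCh38.p14, 250 bases before to 50 bases after each start) held windows for 7 of the 9 genes. HMOX1 and SLC7A11 were not matched. The core of the antioxidant response element was searched as TGACNNNGC on both strands, a motif that can overlap AP-1 sites and that 13.3% of all 35116 promoters held. It was found in GCLM and TXNRD1, and their windows are shown. An element further from the start would not be seen here, so a window without a match does not mean that the gene lacks one. Capitals mark the matches, and positions count the first base of the gene as 0.
GCLM, chr1:93909381-93909680, minus strand, 1 match at -34 to -26: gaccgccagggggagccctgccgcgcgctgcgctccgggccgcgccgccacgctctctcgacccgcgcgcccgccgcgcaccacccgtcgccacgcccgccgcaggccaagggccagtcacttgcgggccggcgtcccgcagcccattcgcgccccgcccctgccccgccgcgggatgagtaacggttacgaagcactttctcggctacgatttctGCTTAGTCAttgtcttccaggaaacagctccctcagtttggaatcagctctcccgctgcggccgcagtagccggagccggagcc
TXNRD1 upstream start, chr12:104215529-104215828, plus strand, 2 matches at -99 to -91 and at -8 to 0: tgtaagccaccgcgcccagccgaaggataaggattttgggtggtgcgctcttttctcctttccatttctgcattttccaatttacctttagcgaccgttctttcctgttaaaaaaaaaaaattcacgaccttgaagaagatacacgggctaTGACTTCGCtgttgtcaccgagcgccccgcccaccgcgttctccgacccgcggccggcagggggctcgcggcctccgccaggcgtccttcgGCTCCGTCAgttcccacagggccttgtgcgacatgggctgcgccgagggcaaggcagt
TXNRD1 downstream start, chr12:104286782-104287081, plus strand, 1 match at -102 to -94: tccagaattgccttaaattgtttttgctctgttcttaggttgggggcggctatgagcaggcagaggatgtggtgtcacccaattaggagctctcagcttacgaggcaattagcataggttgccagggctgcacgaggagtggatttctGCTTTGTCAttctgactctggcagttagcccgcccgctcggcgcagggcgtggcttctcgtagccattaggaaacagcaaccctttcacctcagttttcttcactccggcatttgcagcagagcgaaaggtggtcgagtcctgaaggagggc
The match of GCLM reads GCTTAGTCA on the strand of the gene. The matches of TXNRD1 read TGACTTCGC, GCTCCGTCA and GCTTTGTCA. The RefSeq start of GCLM is not the start in the deposited coordinates. A match of letters is not a binding site.

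Per length, the genes differed widely in abundance. In untreated spheroids of day 7, TXNRD1 stood at 234 scaled CPM per kb of transcript, NQO1 at 37.8, SRXN1 at 35.7, NFE2L2 at 24.9, GCLC at 12.7, SLC7A11 at 8.64, HMOX1 at 8.07, GCLM at 6.89 and AKR1C1 at 0.541. The counting intervals of NQO1 and SRXN1 overlapped in that order, as did those of SLC7A11 with HMOX1 and of HMOX1 with GCLM. HMOX1 was thus 1 of the less abundant targets without drug. After EE-TOPO on day 7 it stood at 74.0 scaled CPM per kb, next only to TXNRD1 at 159 among the 9 genes, and its interval did not overlap that of NQO1, the next lower gene, at 38.4. After CONV-TOPO on day 7 it was also second, at 46.8 against 43.0 for NQO1, with overlapping intervals.

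**Figure D1:**
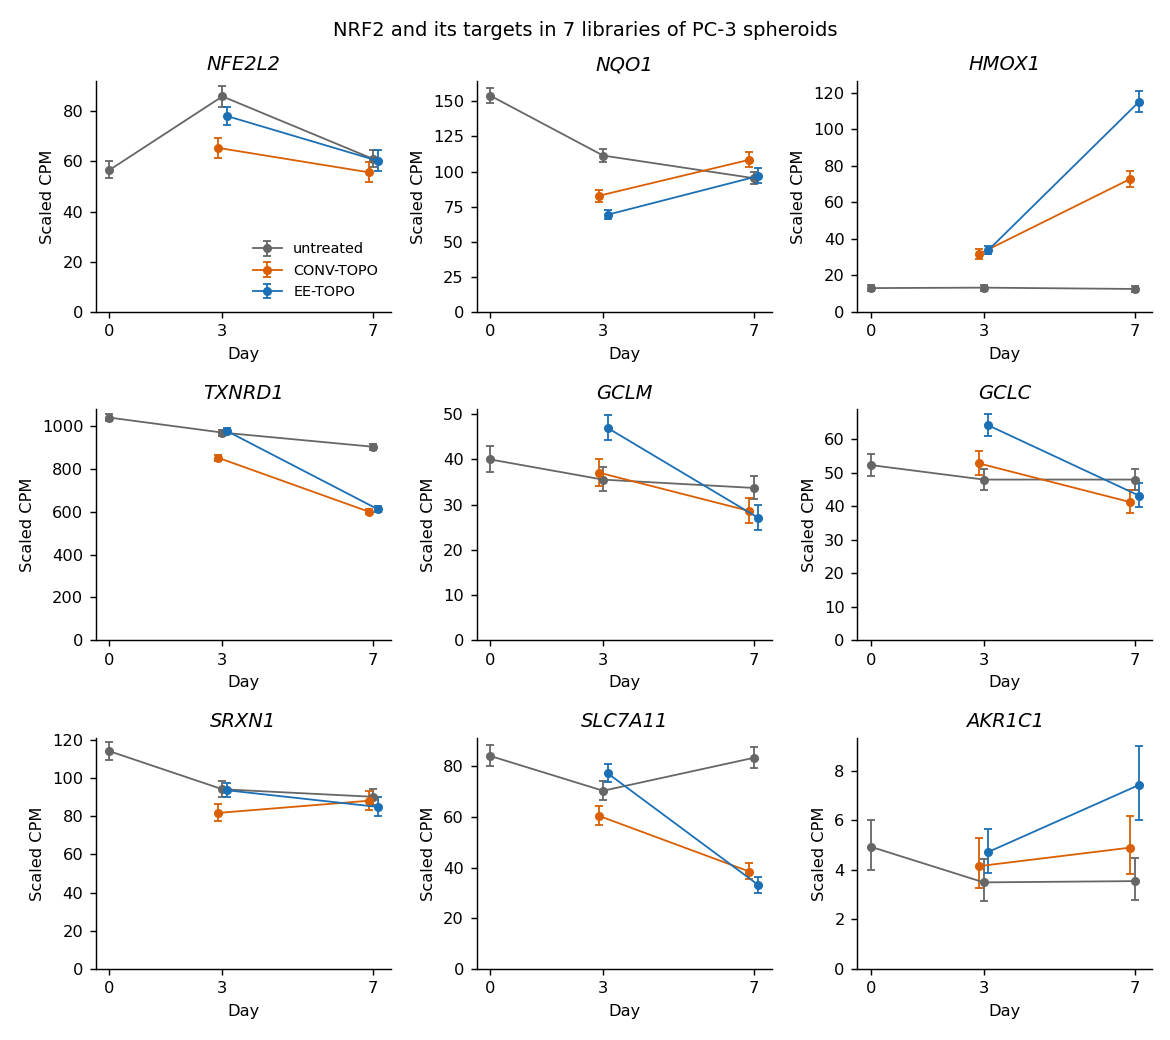
Scaled CPM (y axis, from 0) of the 9 genes by day (x axis) in untreated (grey), CONV-TOPO (orange) and EE-TOPO (blue) spheroids. Each point is 1 library, bars are exact Poisson 95% intervals of counting error only, and lines join days. HMOX1 is flat near 13 without drug and reaches 72.7 and 115 on day 7, whereas TXNRD1 and SLC7A11 are lowest in both treated libraries of day 7.

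Without drug, most of the 9 genes were lower at the later time. In untreated spheroids 8 of 9 were lower on day 7 than on day 0, NFE2L2 being the exception, where 50.4% of all genes were, with a median log2 ratio of -0.20. NQO1 alone was at least 1.5-fold lower (4.68% of all genes).

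The regulator itself differed little with drug. NFE2L2 (hg38 chromosome 2, 177230303 to 177265132, minus strand) was at 56.5, 85.9 and 60.9 scaled CPM in untreated spheroids of days 0, 3 and 7. It was at 65.4 and 55.6 after CONV-TOPO and at 78.1 and 60.2 after EE-TOPO on days 3 and 7. All 4 treated values were below the untreated library of the same day, with ratios of 0.761 (95% interval 0.704 to 0.822) and 0.909 (0.851 to 0.971) on day 3 and 0.913 (0.835 to 0.999) and 0.988 (0.903 to 1.08) on day 7, CONV-TOPO first. The highest value of the 7 was that of untreated spheroids on day 3, 1.52-fold above day 0 (1.41 to 1.64), so the day without drug spread the gene more than the drug did. Neither regimen passed the test (limma, adjusted p = 0.953 for EE-TOPO and 0.914 for CONV-TOPO). A joint trend of gene span, transcript length and GC content, called the length trend for short, is described further on. With it removed, the day 7 ratio of NFE2L2 in EE-TOPO was 1.04.

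Among the partners of NRF2, KEAP1, the adaptor that holds it, was at 148, 139 and 128 scaled CPM without drug on days 0, 3 and 7. On day 3 it was at 141 after CONV-TOPO and 134 after EE-TOPO, 1.01-fold and 0.963-fold of untreated. On day 7 it was at 197 and 181, ratios of 1.54 (1.46 to 1.62) and 1.42 (1.34 to 1.5), above all untreated libraries, as were 29.3% of all genes. BACH1, the repressor, was at 32.8, 43.7 and 38.4 without drug, at 40.1 and 21.2 after CONV-TOPO, and at 62.6 and 28.4 after EE-TOPO on days 3 and 7. Its ratio to untreated was thus 0.916 (0.827 to 1.02) for CONV-TOPO and 1.43 (1.32 to 1.56) for EE-TOPO on day 3, and 0.552 (0.481 to 0.630) and 0.739 (0.651 to 0.835) on day 7. Both treated libraries of day 7 were below every untreated value of BACH1, a position shared by 34.1% of all genes. With the length trend removed the day 7 ratios of BACH1 were 0.808 and 1.08, so for EE-TOPO the direction turned.

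HMOX1, the heme oxygenase that breaks heme down to biliverdin, carbon monoxide and iron, gave the widest difference of the 9 genes. It lies on chromosome 22 (35381096 to 35394208, plus strand) and has the shortest transcript of the set, 1554 bases. Without drug it was at 13.0, 13.3 and 12.5 scaled CPM on days 0, 3 and 7. After CONV-TOPO it was at 31.7 on day 3 and 72.7 on day 7, and after EE-TOPO at 33.8 and 115. All 4 treated libraries were above all 3 untreated ones, which did not differ beyond counting error (0.963-fold from day 0 to day 7, 0.806 to 1.15).

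The ratio of HMOX1 to untreated was 2.39 (2.06 to 2.80) for CONV-TOPO and 2.55 (2.22 to 2.95) for EE-TOPO on day 3, and 5.80 (5.04 to 6.67) and 9.18 (8.01 to 10.5) on day 7. These values rest on 251 to 260 reads in untreated and 517 to 1554 reads in treated libraries. Each regimen thus stood further from untreated on day 7 than on day 3. Of 14731 genes, 33, HMOX1 included, had a lowest ratio over the 4 treated libraries as high as that of HMOX1. Between regimens, EE-TOPO was 1.06-fold of CONV-TOPO on day 3 (0.952 to 1.19) and 1.58-fold on day 7 (1.46 to 1.71).

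Tested over both days, HMOX1 was 2.19 higher on the log2 scale in EE-TOPO than in untreated spheroids (SE 0.44) and 1.82 higher in CONV-TOPO (SE 0.44). With 2 residual degrees of freedom, neither passed (limma, adjusted p = 0.907 and 0.914, higher in 4 of 4 treated libraries). The unadjusted p were 0.0024 and 0.0060. Fitted on the 4 libraries compared alone, with 1 residual degree of freedom, EE-TOPO passed (limma, adjusted p = 0.00362) and CONV-TOPO did not (adjusted p = 0.0717). Over all alternatives the adjusted p of EE-TOPO ran from 0.00362 to 0.985. The difference between the regimens was 0.37 (SE 0.44, limma, adjusted p = 1.00). With the length trend removed, the day 7 ratios of HMOX1 were 3.85 and 6.02.

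Genes of heme and iron handling around HMOX1 were looked at as a list. It held FTL, FTH1, BLVRA, BLVRB, FECH and SLC48A1, which store iron, reduce biliverdin, insert iron into heme and carry heme. On day 3, 3 of 6 were higher than untreated in each regimen, where 48.6% (CONV-TOPO) and 47.4% (EE-TOPO) of all genes were, with a median log2 ratio of 0.05 and -0.06. On day 7, 5 of 6 were higher in each, where 47.2% and 47.6% of all genes were, with medians of 0.82 and 0.955, against -0.04 and -0.05 over all tested genes. BLVRB, which turns biliverdin and flavins over, was at 50.7, 42.4 and 37.4 scaled CPM without drug and at 93.2 (CONV-TOPO) and 108 (EE-TOPO) on day 7, ratios of 2.49 (2.28 to 2.73) and 2.89 (2.65 to 3.16). On day 3 it was at 46.9 and 43.4, so its day 3 values stayed within the untreated range. With the length trend removed the day 7 medians of the list were 0.34 and 0.54, and none of the 6 passed the test in either regimen (limma, lowest adjusted p = 0.907 for EE-TOPO and 0.914 for CONV-TOPO).

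Cystine import and glutathione synthesis behaved otherwise. SLC7A11, the cystine carrier of system xc- (chromosome 4, 138164097 to 138242350, minus strand), has the longest transcript of the 9 genes, 9645 bases. It was at 84.1, 70.3 and 83.4 scaled CPM without drug on days 0, 3 and 7. After CONV-TOPO it was at 60.5 and 38.4 and after EE-TOPO at 77.2 and 33.1 on days 3 and 7. Both treated libraries of day 7 lay below every untreated library, with ratios of 0.461 (0.418 to 0.508) and 0.397 (0.357 to 0.441). On day 3 the regimens lay on different sides of untreated, at 0.860 (0.792 to 0.934) and 1.10 (1.02 to 1.18). The fit over both days gave log2 differences of -0.59 for EE-TOPO (SE 0.37, limma, adjusted p = 0.907) and -0.66 for CONV-TOPO (SE 0.37, adjusted p = 0.914). With the length trend removed its day 7 ratios were 0.840 and 0.740.

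SLC3A2, the heavy chain that carries SLC7A11 to the cell surface, went the other way. It was at 189, 269 and 150 scaled CPM without drug on days 0, 3 and 7, at 290 and 366 after CONV-TOPO, and at 250 and 554 after EE-TOPO on days 3 and 7. Its day 7 ratios were 2.44 (2.34 to 2.56) and 3.71 (3.55 to 3.87), so on day 7 the subunits of the same carrier lay on opposite sides of untreated in both regimens. The untreated library of day 7, at 150, was the lowest untreated one for SLC3A2, which enlarges these ratios. Both treated values of day 7 were nonetheless above the highest untreated value, 269. On day 3 SLC3A2 was above untreated in CONV-TOPO and below it in EE-TOPO, at 290 and 250 against 269. The protein of SLC3A2 also serves other amino acid carriers. With the trend removed, its ratios of 1.85 and 2.81 were still above 1 while those of SLC7A11 were below it.

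The subunits of glutamate-cysteine ligase, the rate-limiting enzyme of glutathione synthesis, followed each other. GCLC, the catalytic subunit (chromosome 6, 53497341 to 53545102, minus strand), was at 52.3, 47.9 and 47.9 scaled CPM without drug, at 52.8 and 41.2 after CONV-TOPO and at 64.1 and 43.2 after EE-TOPO on days 3 and 7. GCLM, the modifier subunit (chromosome 1, 93885200 to 93909599, minus strand), was at 40.0, 35.5 and 33.7 without drug, at 37.1 and 28.6 after CONV-TOPO and at 46.9 and 27.0 after EE-TOPO. In EE-TOPO of day 3 both subunits were at their highest value of the 7 libraries, 1.34-fold (1.23 to 1.45) and 1.32-fold (1.20 to 1.45) of untreated, whereas in CONV-TOPO they were at 1.10 (1.00 to 1.21) and 1.04 (0.935 to 1.17).

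On day 7 both regimens were below every untreated library for both subunits. The ratios of GCLC were 0.860 (0.776 to 0.954) and 0.900 (0.811 to 0.999), and those of GCLM 0.849 (0.749 to 0.960) and 0.803 (0.705 to 0.913). The position below untreated on day 7 was lost once the length trend was removed, with ratios of 1.00 and 1.05 for GCLC and 1.14 and 1.08 for GCLM. Neither gene passed the test in either regimen (limma, lowest adjusted p = 0.937 for GCLC and 0.954 for GCLM). On library totals the fitted difference of GCLM in EE-TOPO turned from 0.04 to -0.03.

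Most of the other 13 genes of the glutathione and cystine list were on the other side of untreated on day 7. In CONV-TOPO 13 of 13 and in EE-TOPO 12 of 13 were higher, where 47.2% and 47.6% of all genes were, and the exception in EE-TOPO was GSTA4, a glutathione transferase, at 22.5 against 22.8 scaled CPM. The median log2 ratios were 0.63 and 0.70, against -0.04 and -0.05 over all tested genes, while on day 3 they were -0.09 and -0.25. CHAC1, a cytosolic enzyme that breaks glutathione down, was at 10.4, 28.0 and 13.6 scaled CPM without drug, at 27.9 and 47.8 after CONV-TOPO and at 22.3 and 66.4 after EE-TOPO on days 3 and 7. Its day 7 ratios were 3.52 (3.05 to 4.06) and 4.88 (4.25 to 5.60), although the untreated library of day 3 was already 2.69-fold above day 0. None of the 13 passed the test (limma, lowest adjusted p = 0.907 for EE-TOPO and 0.914 for CONV-TOPO). With the trend removed the day 7 medians were 0.38 and 0.28, with 10 and 11 of 13 higher. The day 3 medians then were 0.02 (CONV-TOPO) and -0.14 (EE-TOPO).

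In the thioredoxin system, TXNRD1 was lower on day 7 and SRXN1 little changed in scaled CPM, a contrast that was not kept with the trend removed. TXNRD1, the cytosolic thioredoxin reductase (chromosome 12, 104215779 to 104350308, plus strand), was the most abundant of the 9 genes in every library. It was at 1039.5, 969 and 903 scaled CPM without drug, at 852 and 600.5 after CONV-TOPO and at 977 and 612 after EE-TOPO on days 3 and 7. Day 7 thus stood apart in both regimens, with ratios of 0.665 (0.648 to 0.682) and 0.678 (0.660 to 0.696), while the day 3 ratios were 0.879 (0.860 to 0.899) and 1.01 (0.988 to 1.03). The fitted differences were -0.27 for EE-TOPO and -0.39 for CONV-TOPO (SE 0.28 for each, limma, adjusted p = 0.907 and 0.914). With the trend removed the day 7 ratios were 0.818 and 0.847, still below 1.

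SRXN1, sulfiredoxin, which repairs overoxidised peroxiredoxins (chromosome 20, 646624 to 653201, minus strand), was at 114, 94.2 and 90.2 scaled CPM without drug. It was at 81.7 and 88.1 after CONV-TOPO and at 93.6 and 84.9 after EE-TOPO on days 3 and 7. Only the day 3 ratio of CONV-TOPO, 0.868 (0.809 to 0.932), had an interval that left out 1. The day 7 ratios were 0.977 (0.909 to 1.05) and 0.941 (0.873 to 1.01). With the trend removed the day 7 ratios of SRXN1 were 0.843 and 0.793, further below untreated. An unnamed gene model on the same strand shares 2292 bases, 90.7%, of its 2528-base transcript, so its reads are uncertain.

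Of TXN, PRDX1, PRDX6 and TXNIP, the other thioredoxin genes of the list, 0 of 4 were higher than untreated in either regimen on day 3, where 48.6% and 47.4% of all genes were, and 4 of 4 in both on day 7, where 47.2% and 47.6% were. The medians of log2 ratio were -0.32 and -0.37 on day 3 and 0.48 and 0.62 on day 7. TXN is the protein that TXNRD1 reduces, and PRDX1 and PRDX6 remove peroxides, whereas TXNIP binds and inhibits thioredoxin. None passed the test (limma, lowest adjusted p = 0.913 for EE-TOPO and 0.923 for CONV-TOPO), and with the trend removed the day 7 medians were 0.23 and 0.44. The day 3 medians became -0.16 in CONV-TOPO and -0.16 in EE-TOPO.

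NQO1, the quinone reductase that is the usual reporter of NRF2 activity (chromosome 16, 69709401 to 69726561, minus strand), changed most with time in untreated spheroids. It was at 154, 111 and 95.2 scaled CPM without drug on days 0, 3 and 7, so day 7 was 0.618-fold of day 0 (0.583 to 0.655). After CONV-TOPO it was at 82.7 and 108 and after EE-TOPO at 69.2 and 96.8 on days 3 and 7. Both treated libraries of day 3 were below every untreated library, with ratios of 0.742 (0.693 to 0.794) and 0.621 (0.583 to 0.662), and EE-TOPO was the lowest of the 7.

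On day 7 NQO1 was back within the untreated range, with ratios of 1.14 (1.06 to 1.22) and 1.02 (0.947 to 1.09). On library totals these were 0.955 and 0.870, so their direction depends on the scaling. In EE-TOPO it was below CONV-TOPO on both days, 0.837-fold (0.780 to 0.901) and 0.893-fold (0.830 to 0.962), and it was the only 1 of the 9 genes lower in EE-TOPO on day 3. Fitted differences from untreated were -0.33 for EE-TOPO and -0.12 for CONV-TOPO (SE 0.26 for each, limma, adjusted p = 0.907 and 0.929). An opposite-strand gene model covers 22.8% of its transcript, and the library kit does not mark strand.

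AKR1C1, an aldo-keto reductase that inactivates progesterone and reduces reactive carbonyls (chromosome 10, 4963415 to 4983283, plus strand), was the scarcest. It was at 4.93, 3.49 and 3.54 scaled CPM without drug, at 4.14 and 4.89 after CONV-TOPO and at 4.72 and 7.42 after EE-TOPO on days 3 and 7, from 68 to 115 reads. EE-TOPO of day 7 was the highest library, 2.10-fold of untreated (1.52 to 2.87), and the other 3 treated ratios, 1.19, 1.35 and 1.38, had intervals that held 1. The untreated library of day 0 was as high as CONV-TOPO of day 7. The fitted difference of EE-TOPO was 0.62 (SE 0.30, limma, adjusted p = 0.907). With the trend removed the day 7 ratios of AKR1C1 were 1.77 (CONV-TOPO) and 2.51 (EE-TOPO), and on library totals 1.16 and 1.80.

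AKR1C2 and AKR1C3 are close copies of AKR1C1, so reads could be shared between them and their split is uncertain. AKR1C2 was at 0.107 to 0.841 scaled CPM without drug and at 0.480 to 1.62 in treated libraries, and its day 7 ratio of 15.0 for EE-TOPO rested on so few untreated reads that the interval ran from 4.0 to 143. AKR1C3, which makes active androgens, was at 28.2, 17.6 and 18.5 without drug and at 16.2 and 23.3 (CONV-TOPO) and 14.0 and 25.6 (EE-TOPO) on days 3 and 7. Like NQO1, AKR1C3 was below untreated on day 3 and above it on day 7 in both regimens, with the highest value in untreated spheroids of day 0.

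**Figure D2:**
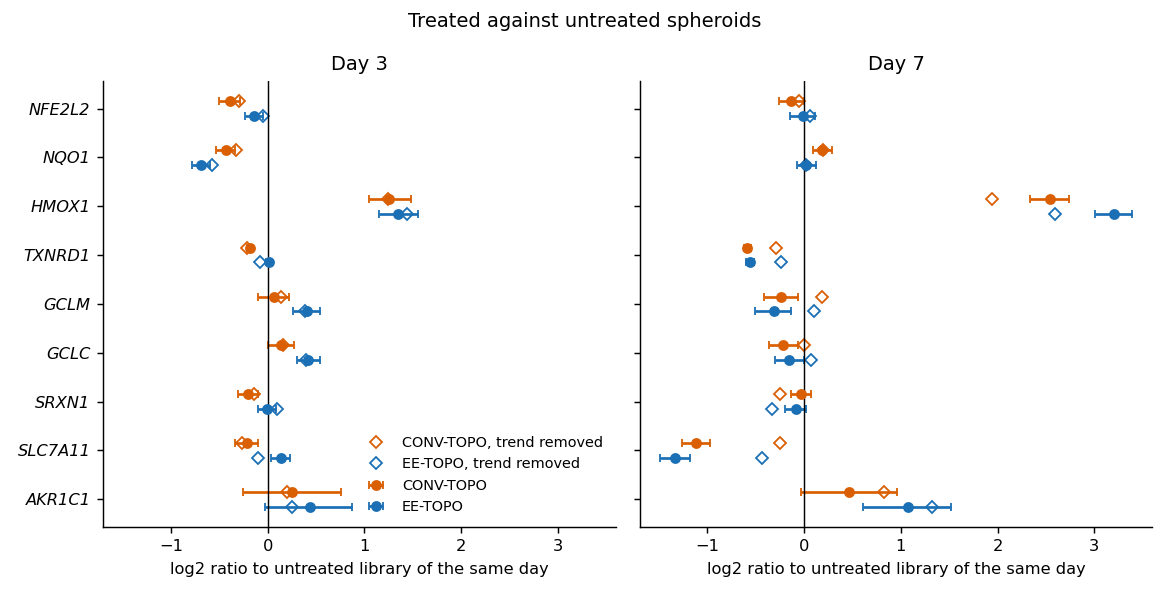
Log2 ratio of scaled CPM in treated to untreated spheroids of the same day (x axis) for the 9 genes (y axis), with day 3 on the left and day 7 on the right. Filled circles with exact 95% counting intervals are CONV-TOPO (orange) and EE-TOPO (blue), and open diamonds are the same ratios of scaled CPM + 1 after the joint trend with gene span, transcript length and GC content was removed. HMOX1 lies right of 0 in all 4 libraries, and the day 7 circles of SLC7A11, at -1.12 and -1.33, move to -0.25 and -0.44 as diamonds.

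The 9 genes did not shift as a set. At least 1.5-fold above untreated were 1 of 9 in CONV-TOPO and 1 of 9 in EE-TOPO on day 3 (HMOX1 each time), where 8.53% and 11.7% of all tested genes were. On day 7 the counts were 1 of 9 for CONV-TOPO (HMOX1) and 2 of 9 for EE-TOPO (HMOX1 and AKR1C1), against 22.1% and 23.0% of all genes. At least 1.5-fold below untreated were 0 and 1 of 9 on day 3 (NQO1 in EE-TOPO), against 5.7% and 7.33%, and 2 and 1 of 9 on day 7, against 26.7% and 27.2%. The 2 were SLC7A11 and TXNRD1, and in EE-TOPO TXNRD1, at 0.678, lay just outside that limit. The shares of the 9 on day 7, 11.1% and 22.2%, were at or under those of all genes.

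Their median log2 ratio was -0.19 and 0.14 on day 3 and -0.13 and -0.09 on day 7 (CONV-TOPO first), against -0.01, -0.03, -0.04 and -0.05 over all tested genes. In both treated libraries of day 7, HMOX1 was above and TXNRD1, GCLM, GCLC, SRXN1 and SLC7A11 were below every untreated library. For SRXN1 the intervals of both ratios held 1. That is 1 and 5 of 9, against 29.3% and 34.1% of all genes. On day 3, HMOX1 and GCLC were above and NQO1 was below (15.6% and 18.4% of all genes). For GCLC, CONV-TOPO of day 3 was 1.01-fold of untreated day 0, with an interval (0.920 to 1.11) that held 1. HMOX1 alone of the 9 was above every untreated library in all 4 treated ones, as were 4.93% of all genes, and 0 of 9 were below all of them (5.79%). It was also the only 1 at least 1.5-fold above untreated in all 4, as were 166 genes (1.13%) in all.

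Across both days, 0 of 9 genes passed in any comparison, as did 0.0% of 14731 genes for each regimen against untreated and for the regimens against each other (limma, adjusted p under 0.05). At an unadjusted p under 0.05, HMOX1 was counted in both comparisons with untreated and no other of the 9 was, where 526 genes (3.57%, EE-TOPO) and 254 genes (1.72%, CONV-TOPO) were counted. Between regimens 0 of 9 were, and 129 genes (0.876%) in all. This fit takes its error from how far an effect differs between day 3 and day 7, since no replicates exist. Fitted on only the 4 libraries compared, 32, 9 and 86 genes passed in the 3 comparisons, of which HMOX1 in EE-TOPO against untreated was the only 1 of the 9.

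Daily fractions and bolus were set side by side at the same day. By the stated schedule, CONV-TOPO spheroids had received the whole weekly amount by day 3 and EE-TOPO spheroids only part of it. Schedule and amount received therefore cannot be told apart on that day. On day 3, 8 of 9 genes were higher in EE-TOPO than in CONV-TOPO, NQO1 being the exception, with a median log2 ratio of 0.20, where 49.6% of all genes were higher and the median was -0.0030. The ratios of the 8 ran from 1.06 (HMOX1) to 1.28 (SLC7A11, 1.18 to 1.38), and 0 of 9 differed 1.5-fold, against 6.76% of genes higher and 5.27% lower by that much. On day 7, 5 of 9 were higher (48.5% of all genes), with a median of 0.03, and the genes at least 1.5-fold higher were HMOX1 and AKR1C1, at 1.58 and 1.52 (9.28% of all genes), and 0 of 9 were as much lower (7.65%). The fit over both days gave a median log2 difference of 0.13 with 8 of 9 positive, and 0 of 9 passed (limma, lowest adjusted p = 1.00).

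Long and short transcripts differed on day 7 across the whole table, and the 9 genes fell along that trend. Over 14170 annotated genes, Spearman's rho of the day 7 log2 ratio with transcript length was -0.56 in CONV-TOPO and -0.52 in EE-TOPO, and over the 9 genes it was -0.58 and -0.62. On day 3 the relation had the other sign, with rho of 0.24 and 0.42 over all genes and 0.08 and 0.22 over the 9. Lists of short transcripts thus lie along a trend that turns between the days. These are descriptions across genes of the same libraries. A trend with gene span, length of the transcript and GC content held 36.3% and 33.9% of the variance of the day 7 ratios, and 8.69% and 18.3% on day 3. HMOX1 has a transcript shorter than most, with 17.0% of tested genes shorter, and SLC7A11 a long one, with 95.4% shorter. Whether length contributes to the values of either was not tested. After the trend was removed, HMOX1 was still the highest of the 9 and SLC7A11 the lowest in EE-TOPO of day 7, while 0 of 9 remained at least 1.5-fold lower in either regimen.

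**Figure D3:**
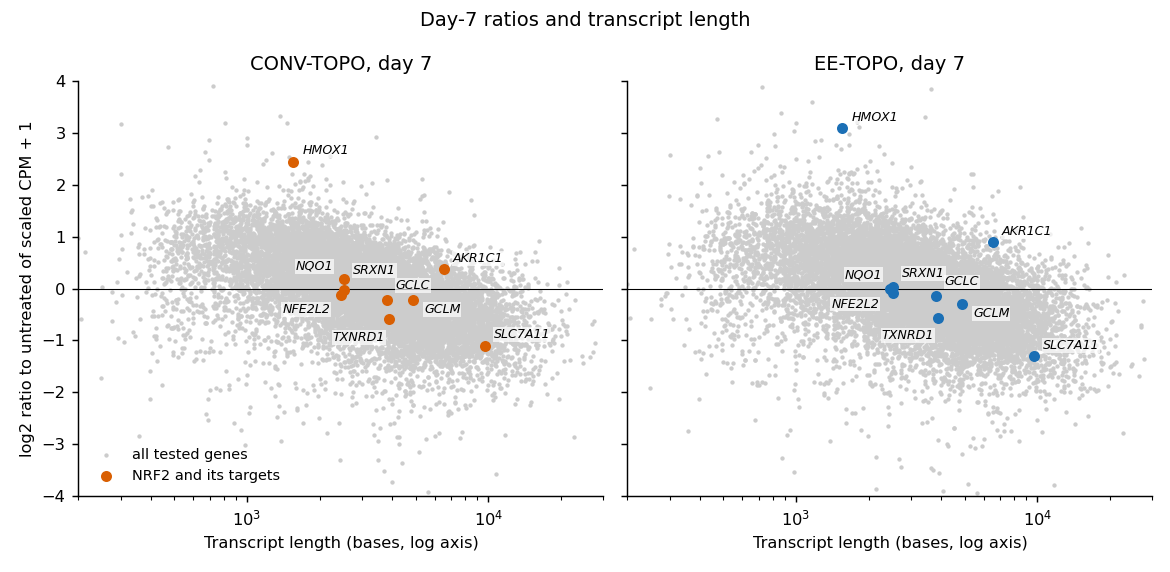
Log2 ratio of scaled CPM + 1 to untreated on day 7 (y axis) against transcript length in bases (x axis, log scale) for CONV-TOPO (left) and EE-TOPO (right). Grey points are tested genes with an annotated length, apart from a few beyond the limits of the y axis, and coloured points the 9 NRF2 genes. Ratios fall with length over all genes (rho -0.56 and -0.52), HMOX1 (1554 bases) lies near the top of the cloud and SLC7A11 (9645 bases) at its low right.

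Beyond the 9, 65 further genes of the NRF2 pathway and of redox functions around it were listed by role, together with 10 antioxidant enzymes not counted as core targets. Of the 65, 62 passed the filter (CYP4F11, ABCC2 and ABCG2 did not). A place on the list does not mean that NRF2 drives a gene here, which was not tested. On day 3 the 62 were split, with 24 (CONV-TOPO) and 26 (EE-TOPO) higher than untreated, where 48.6% and 47.4% of all genes were, and medians of -0.10 and -0.05. On day 7, 48 and 43 were higher, where 47.2% and 47.6% of all genes were, with medians of 0.47 and 0.48. At least 1.5-fold higher were 27 (43.5%) and 25 (40.3%), where 22.1% and 23.0% of all genes were, and 5 and 3 were as much lower (8.06% and 4.84%, against 26.7% and 27.2% of all genes). Their transcripts are short, with a median of 2072.5 bases against 3217 over tested genes and 3785 over the 9, and with the trend removed the day 7 medians were 0.25 and 0.20. None of the 62 passed the test in any comparison (limma, 0 at an adjusted p under 0.05), and at an unadjusted p under 0.05 ALDH3A1 was the only 1 counted.

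By role, the 12 regulators lay on both sides of untreated on day 7, 6 higher and 6 lower in each regimen, where 47.2% and 47.6% of all genes were higher. Their medians were -0.05 and -0.03, after 0.11 and 0.18 on day 3. In CONV-TOPO of day 7, 2 of them (16.7%) were at least 1.5-fold higher and 3 (25%) as much lower, where 22.1% and 26.7% of all genes were. In EE-TOPO of day 7, 1 and 0 were, where 23.0% and 27.2% of all genes were. SQSTM1, an autophagy receptor that binds KEAP1, was named after its values were seen. It was at 621, 1004 and 538 scaled CPM without drug on days 0, 3 and 7, at 1109.7 and 1192 after CONV-TOPO and at 956 and 1600.2 after EE-TOPO on days 3 and 7. Its day 7 ratios were 2.22 (2.17 to 2.27) and 2.98 (2.91 to 3.05), above all untreated libraries, as were 29.3% of all genes. Untreated spheroids of day 3 were already 1.62-fold above day 0. NADPH supply genes, among them ME1 and TKT, had day 7 medians of 0.44 and 0.25, or 0.26 and 0.01 with the trend removed. On day 3, 0 of 6 (CONV-TOPO) and 2 of 6 (EE-TOPO) were higher, where 48.6% and 47.4% of all genes were. Detoxification genes, 16 of 19 tested, were spread widest, with medians of 0.0039 and -0.00093 on day 3 and 0.26 and 0.08 on day 7. With the trend removed the day 7 medians of the detoxification genes were 0.02 and -0.12. Of the 5 other targets, OSGIN1, TRIM16, TRIM16L, HTATIP2 and ETHE1, 5 (CONV-TOPO) and 4 (EE-TOPO) were higher on day 7, where 47.2% and 47.6% of all genes were. Their medians were 0.67 and 1.20, or 0.46 and 0.86 with the trend removed. MAFK and SLC48A1, named after their values were seen, were the 2 of the 62 genes (3.23%) above every untreated library in all 4 treated ones, under the 4.93% of all genes. MAFK, a small MAF partner of NRF2 and BACH1, was at 75.5 to 80.5 scaled CPM without drug and at 89.8 to 116 with it, and SLC48A1, a heme carrier, at 22.8 to 25.4 and 27.6 to 43.8.

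The lowest genes of the pathway list were ABCC1, ALDH3A1 and ALDH3A2. ABCC1, an efflux pump of glutathione conjugates, was at 61.8 to 75.3 scaled CPM without drug, at 63.5 and 65.7 on day 3, and at 45.4 (CONV-TOPO) and 37.2 (EE-TOPO) on day 7. ALDH3A2, a fatty aldehyde dehydrogenase, was likewise below untreated on day 7, at 0.699 (0.661 to 0.739) and 0.573 (0.539 to 0.609). ALDH3A1, an aldehyde dehydrogenase, differed between the regimens. It was at 107, 61.2 and 69.3 without drug, at 52.4 and 106 after CONV-TOPO and at 26.5 and 46.6 after EE-TOPO on days 3 and 7. EE-TOPO was thus at 0.506 (0.456 to 0.561) and 0.439 (0.40 to 0.482) of CONV-TOPO, and the fit over both days gave a log2 difference of -1.06 (SE 0.28, limma, adjusted p = 1.00, lower in 2 of 2 days).

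Of the 10 other antioxidant enzymes, 8 were lower and 2 higher than untreated on day 3 in each regimen, where 48.6% and 47.4% of all genes were higher. On day 7, 8 were higher in each regimen, where 47.2% and 47.6% of all genes were, with medians of 0.70 and 0.63. PRDX5, a mitochondrial and peroxisomal peroxiredoxin, was at 347, 275 and 207 scaled CPM without drug, at 239 and 596 after CONV-TOPO and at 220 and 557 after EE-TOPO on days 3 and 7. PRDX3, the other mitochondrial peroxiredoxin, was at 147, 107 and 112 without drug and at 81.6 to 101 in all 4 treated libraries, below every untreated value, as were 5.79% of all genes. The 10 transcripts are the shortest of these lists, with a median of 1146 bases, and with the trend removed the day 7 medians were 0.31 and 0.15. On day 3 the medians were -0.18 (CONV-TOPO) and -0.30 (EE-TOPO), and -0.12 and -0.11 with the trend removed. None passed the test (limma), and SOD2, the mitochondrial superoxide dismutase, was the only 1 with an unadjusted p under 0.05, 0.61 higher on the log2 scale in EE-TOPO than in untreated spheroids and than in CONV-TOPO (SE 0.21, adjusted p = 0.907 and 1.00).

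**Figure D4:**
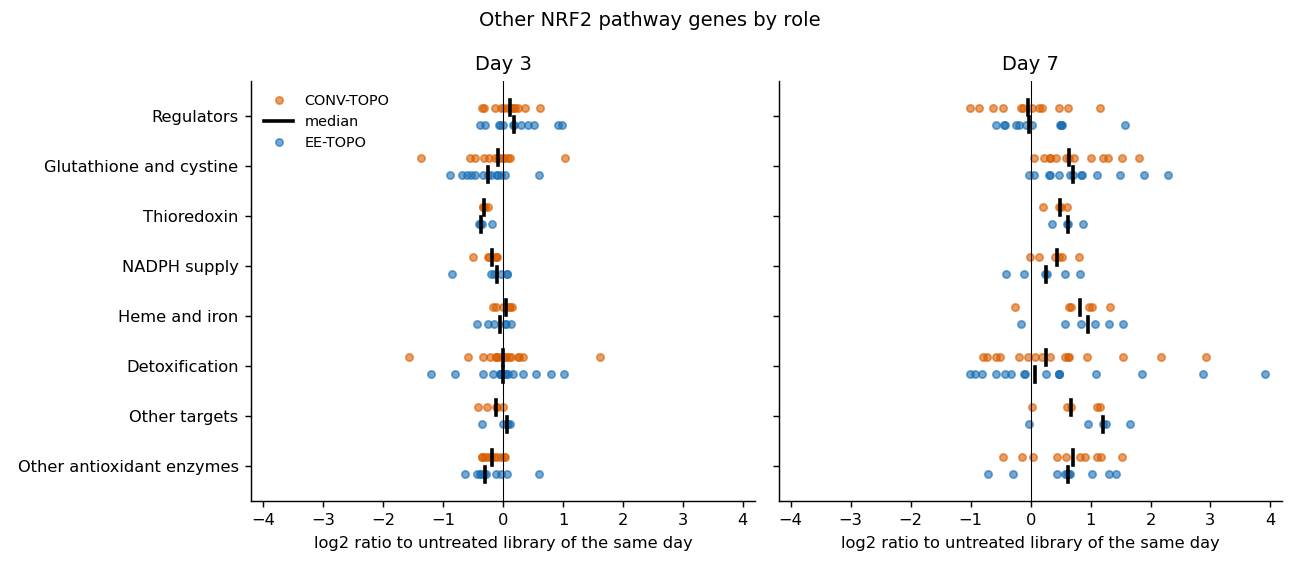
Log2 ratio of scaled CPM to untreated spheroids of the same day (x axis) for the further NRF2 pathway genes and other antioxidant enzymes by role (y axis), day 3 left and day 7 right. Each point is 1 gene in 1 CONV-TOPO (orange) or EE-TOPO (blue) library and black bars are medians. On day 7 the medians of every role but the regulators lie right of 0, from 0.08 to 1.20, and on day 3 they lie between -0.37 and 0.18. The trend with length and GC content is not removed here. With it removed, the day 7 median of the detoxification genes in EE-TOPO is -0.12.

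Genes whose levels over the 7 libraries were most like those of NFE2L2 were ZNF473, TNFAIP3, CLSPN, SLC7A1 and ZNF697, with Pearson's r of 0.970, 0.961, 0.956, 0.950 and 0.946 among 4988 genes compared. For the mean of the 8 targets the nearest were DYSF, ALPP, MMP15, SLC39A11 and BMP4, with r of 0.811, 0.761, 0.729, 0.716 and 0.699. The highest r was lower for the mean of the targets than for NFE2L2, but a mean of 8 genes and a single gene are unlike profiles. How high an r arises by chance among 4988 genes over 7 libraries was not tested. For HMOX1, chosen after its values were seen, the nearest genes were TFF1, LOC93622, H2AC19, H2AC18 and UCA1, with r of 0.997, 0.992, 0.988, 0.987 and 0.987. Of these, H2AC18 and H2AC19 are near-identical copies. These are descriptions over 7 libraries that share treatment, day and depth.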

How the data were processed

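The 9 genes and the gene lists were chosen with earlier results of these data known. Per the labels and methods, the authors built TruSeq RNA v2 libraries, mapped reads to hg38 with STAR, and deposited CPM (counts per 1000000 reads) for 18144 genes, naming DESeq2, edgeR and Partek Flow as their tools. An offset of 0.0001 CPM was subtracted. Low CPM were whole reads (tolerance 0.02) for 90.2% to 92.2% of values, which gave the depth. Since not all were whole, no count test was run. CPM were divided by TMM factors. Genes with at least 0.566 CPM (10 reads at median depth) in 2 libraries were tested on log2(scaled CPM + 1) by limma 3.58.1 (R 4.3.3) in 1 model of 6 libraries that had terms for day and treatment, 2 residual degrees of freedom, empirical Bayes with trend, and Benjamini-Hochberg adjustment at 0.05 over all genes, so log2 differences understate those of low genes. Ratios of single libraries have exact 95% conditional binomial intervals that cover counting error only. Named genes of the wider lists (mean of at least 5 CPM) were the 3 highest and 3 lowest by mean log2 difference over both regimens, 1 of each among the other enzymes, and KEAP1, BACH1, AKR1C2 and AKR1C3. Genes of like pattern had at least 10 CPM and an SD of at least 0.3. Transcript length and GC content came from GENCODE 44 (17103 genes), and gene span from the deposited coordinates. Their joint trend was removed as 1 of the alternatives, beside other scalings, filters, pseudocounts, baselines and fits. Deposited ends lie 1 base past those of RefSeq for 72.2% of 17459 matched genes. Scripts were tested on simulated data. The labels give days, while the series text speaks of weeks of exposure. Libraries of day 1 were not used here. Some marker genes are not reported here.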

Additional observations from a re-analysis of the deposited data

Results flagged for a closer look

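Of the 9 genes 3, and of the 12 further genes named by rule 4, had both regimens on 1 side of untreated on day 3 and on the other on day 7. Over all 14731 tested genes 42.2% did, as did 29 of the 62 further pathway genes and 7 of the 10 other enzymes. This difference between days was not tested. Values are the mean over both regimens of the day 7 minus the day 3 log2 ratio of scaled CPM + 1. NQO1 went from below to above untreated, by 0.66, although the day 7 direction turns on library totals. GCLM and GCLC went from above to below, by -0.49 and -0.45, and with the length trend removed neither was below untreated on day 7. CHAC1 differed by 2.14 and PRDX5 by 1.74, both above untreated on day 7. ABCC1 differed by -0.92, and AKR1C3, which may share reads with AKR1C1, by 0.59. With 1 library per treatment and day, no group was large enough to look for a library apart from its replicates.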

How the results depend on the processing

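No paired analysis was possible because the labels give no replicate numbers and each treatment has a single library per day. Apart from fits of a single day, 236 of 243 values of single genes kept their direction, 1 changed its side of the threshold, and 53 of 54 list medians kept their direction. Dropping the filter, the day term or the mean-variance trend, or fitting only the 4 libraries compared, leaves log2 differences unchanged by construction. Direction could not turn in those fits, so the counts of kept directions overstate how far direction was put to the test. Of 121 counts, 106 stayed within 1.5 times. Many of these were counts of genes passing the test, which were 0 in the main fit and in most alternatives. With 2 residual degrees of freedom they had little room to move, so the 106 overstates how far counts were put to the test. Fitted on only the 4 libraries compared, limma called 32 genes in EE-TOPO against untreated, 9 in CONV-TOPO against untreated and 86 in EE-TOPO against CONV-TOPO, against 0 in each fit of 6 libraries. Among them were 1 of the 9 genes, HMOX1 (2.19 log2, adjusted p = 0.00362), and 1 of the wider list, ALDH3A1. The members' median log2 difference was 0.13 without day 7 in EE-TOPO. In CONV-TOPO it was -0.22 on library totals, -0.19 without day 7 and -0.068 with the trend of span, length and GC removed. The wider list's median between regimens was 0.025 without day 3, -0.0073 without day 7 and 0.073 with the trend removed. Fits of 1 day, which have no test, moved more, and 11 of 54 values of single genes and 4 of 12 list medians turned. Without day 3, log2 differences from untreated turned for NQO1 (0.023 in EE-TOPO and 0.18 in CONV-TOPO), GCLM (-0.31 in EE-TOPO) and GCLC (-0.15 in EE-TOPO), and those between regimens for GCLM (-0.077), SRXN1 (-0.053) and SLC7A11 (-0.21). Without day 7 they turned for TXNRD1 (0.011) and SLC7A11 (0.13) in EE-TOPO and for GCLM (0.061) and GCLC (0.14) in CONV-TOPO. The wider list's median against untreated was 0.13 in EE-TOPO and 0.12 in CONV-TOPO over both days, 0.48 and 0.47 without day 3, and -0.047 and -0.095 without day 7. The members' median between regimens was 0.028 without day 3 and 0.20 without day 7, against 0.13 over both. Among the other alternatives, the members' median in EE-TOPO turned with the trend removed (0.0058). Direction turned for NFE2L2 in EE-TOPO against the mean of 3 untreated days (0.041) and with the trend removed (0.0058). It turned for GCLM in EE-TOPO on library totals (-0.030) and against 3 untreated days (-0.024). With the trend removed it turned in CONV-TOPO for GCLM (0.16) and GCLC (0.080), and between regimens for SLC7A11 (-0.010). Counts of the 9 genes at least 1.5-fold lower became 1 in CONV-TOPO of day 3 and 3 in EE-TOPO of day 7 against untreated day 0, and 2 in EE-TOPO of day 7 on library totals. At 2-fold they were 0 in EE-TOPO of day 3 and 1 in CONV-TOPO of day 7, which was also 1 with median-of-ratios factors. With the trend removed they were 0 in EE-TOPO of day 3 and in both regimens of day 7, and 2 (HMOX1 and AKR1C1) were higher in CONV-TOPO of day 7. Beyond the construction of each alternative, the cause was not tested. Depth limits genes of few reads, among them AKR1C1 and AKR1C2, and the lack of replicates limits all.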
